A study of Mus musculus with 6 samples.

Results

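Kit, Stra8, Sohlh1, Sohlh2, Dmrt1, Dmrtb1, Meioc and Ythdc2 are 8 mouse genes known for their work where a spermatogonium commits to differentiate and then stops dividing by mitosis to enter meiosis. They were chosen by name, as 8 of the 25771 genes in the count table, and all 8 had UMI (unique molecular identifiers, each standing for 1 captured RNA molecule). The study sequenced single cells of testes that had been digested with enzymes, taken from adult mice (C57BL6) whose genotype was either NONO or NONO△ER (written NONO deltaER in the plots). There were 3 libraries per genotype, named TA, TB and TC (called WT in the files and read here as NONO) and TD, TE and TF (called KI and read here as NONO△ER). Every direction given below turns if that reading is wrong. Neither genotype was treated, and the sources used here do not say what the △ER allele alters. Whether each library is 1 animal is likewise not stated, so the spread that p-values rest on may be technical.

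The 46495 deposited cells carry the authors' own labels, with 17 fine classes inside 9 broad ones. The course into meiosis runs here through 5 fine classes: Undifferentiated SG (spermatogonia, 1503 cells), Differentiated SG (619 cells), Preleptotene SC (spermatocytes, 1296 cells), Lep/Zygo/ePac SC (2439 cells) and IPac/eDip SC (1362 cells). Libraries held 6261 to 8909 cells and 81042216 to 110018960 UMI, and 650 of 45836 distinct cell barcodes occurred in 2 or more libraries. Depth differed by class: the median UMI per cell in a library was 2675 to 4408 in Undifferentiated SG, 1627.5 to 2761 in Differentiated SG, 1071 to 1498 in Preleptotene SC and 10358.5 to 22265 in Lep/Zygo/ePac SC. By the median share of mitochondrial UMI the libraries parted into TA, TB and TF (0.0735% to 0.132%) and TC, TD and TE (0.00846% to 0.0182%), a split that crosses the genotypes.

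As background, retinoic acid made in the seminiferous epithelium drives spermatogonia to turn on the receptor KIT and the gatekeeper STRA8, while the factors SOHLH1 and SOHLH2 hold the differentiation program and DMRT1 keeps cells from entering meiosis early. STRA8, with its partner MEIOSIN, switches on meiotic genes at the preleptotene stage. MEIOC and YTHDC2 then act together in the cytoplasm on RNA, and germ cells that lack either are known to enter meiosis but fail to hold it.

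Of the 8 genes, 6 were matched by symbol to RefSeq's promoter windows (GRCm38.p6), and no window was matched for Dmrt1 and Ythdc2. The 250 bases before each start were searched on both strands for 4 short motifs: the E-box CACGTG, read by basic helix-loop-helix factors such as the SOHLH pair; AGGTCA, a retinoic acid receptor half-site; CNCCTCAG, a motif known for STRA8; and ACAATGT, the core of the DMRT motif. Sohlh1 is shown whole because its window held 3 E-boxes, in capitals together with the AGGTCA that overlaps the middle one. The window is chr2:25847249-25847498, minus strand.

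Sohlh1: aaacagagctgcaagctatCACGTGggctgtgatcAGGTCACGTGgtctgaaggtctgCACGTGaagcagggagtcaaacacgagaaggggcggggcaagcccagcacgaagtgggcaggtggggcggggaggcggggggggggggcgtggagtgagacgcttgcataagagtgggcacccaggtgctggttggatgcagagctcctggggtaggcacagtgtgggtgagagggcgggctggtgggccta

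Counted from the start site, the E-boxes lay at bases -231 to -226, -211 to -206 and -192 to -187. At least 1 E-box occurred in 6.02% of all 32851 windows of the same length, and 3 or more in 20 of them (0.0609%). Stra8 and Sohlh2 are shown as stretches of 30 bases around their matches, since Stra8 is the textbook retinoic acid response gene and Sohlh2 the one member whose window matched the STRA8 motif. The matching letters are in capitals, and the stretches run in the order chr6:34920742-34920771, chr6:34920792-34920821, chr6:34920898-34920927 and chr3:55182011-55182040, all on the plus strand.

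Stra8, AGGTCA: gatggggtgaaaAGGTCAtcttgctccttc
Stra8, ACAATGT: ggcaagttgttACAATGTtttcaccaatgt
Stra8, AGGTCA: gcctggggtaccAGGTCAgttttttacctg
Sohlh2, CNCCTCAG: tcttgctccgcCCCCTCAGcgcgggcccgc

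The Stra8 matches began 194, 145 and 38 bases before the RefSeq start, which lies inside the longer span that GENCODE M21 gives the gene. AGGTCA occurred in 14.0% of all windows, CNCCTCAG in 6.42% and ACAATGT in 2.56%, so single matches of this kind are common and are given as a description only. In the mm10 annotation of GENCODE M21, Kit spans chr5:75574916-75656722, Stra8 chr6:34920163-34939344, Sohlh1 chr2:25842995-25847248 (minus strand), Sohlh2 chr3:55182028-55209957, Dmrt1 chr19:25505618-25604329, Dmrtb1 chr4:107676290-107684230 (minus strand), Meioc chr11:102663716-102682237 and Ythdc2 chr18:44827746-44889724. No other annotated gene overlapped any of these spans, on either strand.

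Levels below are CPM, the UMI of a gene per 1000000 UMI of the cells of 1 class in 1 library, with the mean ± SD over all 6 libraries unless a genotype is named. The classes come from a clustering of the same cells, so differences between classes are described without a test. Within the course the genes fell into early, middle and late profiles, which the plot of levels by library and class shows on a log scale.

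**Figure D1:**
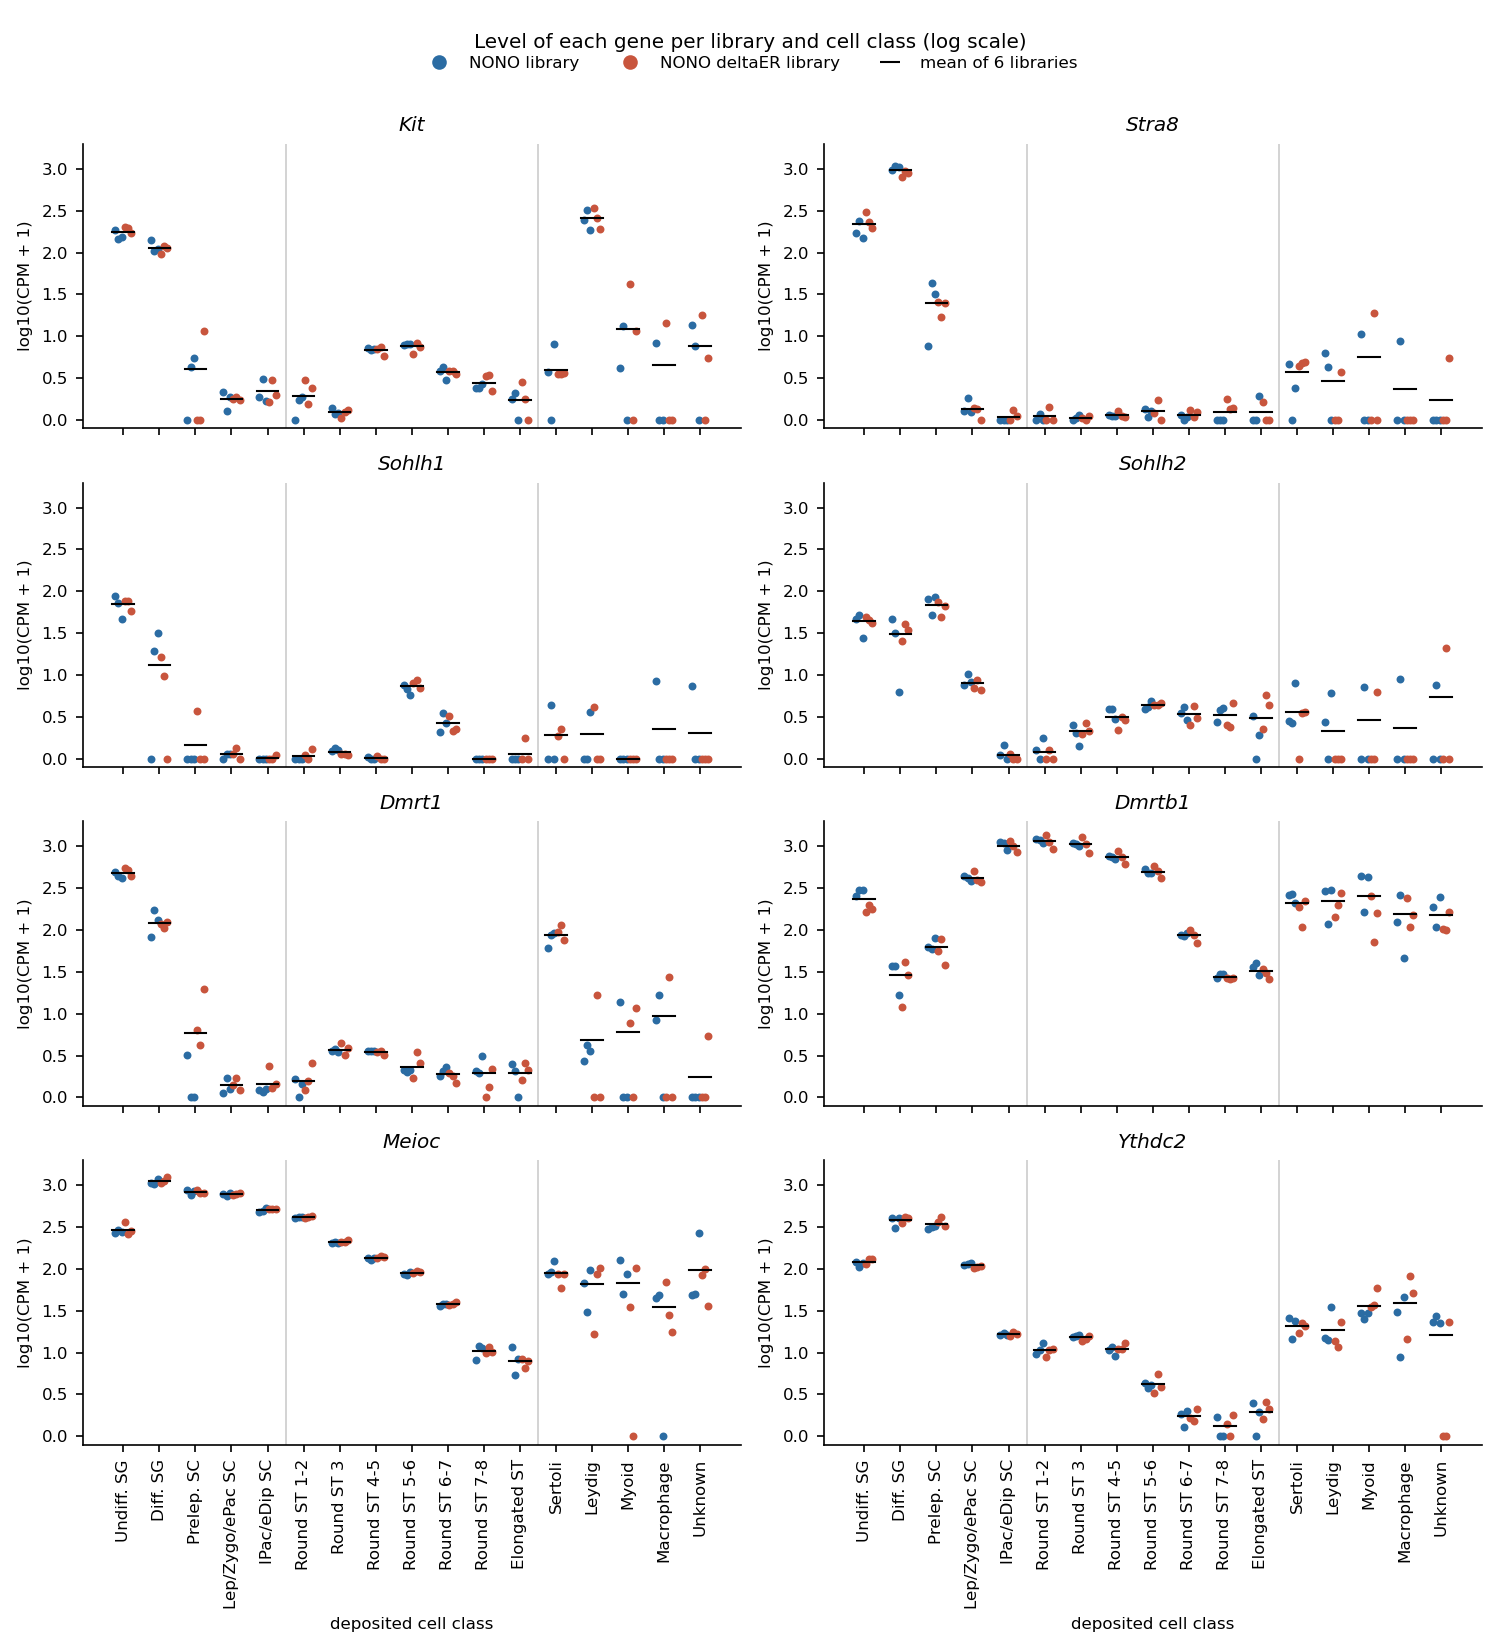
Level of each gene as log10(CPM + 1) in every library (points, 3 NONO and 3 NONO deltaER) and its mean over 6 libraries (black lines) in the 17 deposited classes; grey lines part the course, the spermatids and the somatic classes. Stra8 was highest in Differentiated SG (960 CPM), Dmrt1 in Undifferentiated SG (478 CPM), and Dmrtb1 in Round ST(Step 1-2) (1164 CPM).

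Kit encodes the receptor for KIT ligand (Kitl) and is the standard mark of a differentiating spermatogonium. Kit was at 187, 142 and 152 CPM in the Undifferentiated SG of TA, TB and TC, and at 201, 194 and 168 CPM in those of TD, TE and TF. In Differentiated SG it was at 142, 104 and 109 CPM in the NONO libraries and 94.6, 118 and 112 CPM in the NONO△ER ones. All 6 libraries thus held Kit RNA in both classes, and the 6 values of Undifferentiated SG (142.5 to 201 CPM) lay above those of Differentiated SG (94.6 to 142.1 CPM), by the least between TB and TA. In Preleptotene SC only 6 UMI of Kit were counted over all libraries, and Lep/Zygo/ePac SC held 0.782 CPM.

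Kit was also present outside the course. Leydig cells, which are known to express KIT, had 256 ± 64.1 CPM, a range that overlapped that of Undifferentiated SG. Round spermatids had a small second peak, 5.91 ± 0.576 CPM at Round ST(Step 4-5) and 6.60 ± 0.774 CPM at Round ST(Step 5-6). Since those classes are large, spermatids after step 1-2 held 42.6% of all Kit UMI, against 32.9% for Undifferentiated SG. Spermatids are known to make a shortened KIT from an internal start, which counting at the 3′ end cannot tell from the full transcript.

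Sohlh1 and Sohlh2, the paired basic helix-loop-helix factors of early spermatogonia, had different courses. Sohlh1 was at 86.1, 72.5 and 45.6 CPM in the Undifferentiated SG of the NONO libraries and at 75.2, 75.8 and 57.3 CPM in those of NONO△ER. It stood at 12.2 ± 12 CPM in Differentiated SG, with no UMI in TA and TF, and 1 UMI was counted in Preleptotene SC. Sohlh1 thus left the course before its partner.

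Sohlh2 was at 43.2 ± 8.72 CPM in Undifferentiated SG, 29.9 ± 14.3 CPM in Differentiated SG and 67.2 ± 14.7 CPM in Preleptotene SC. Its Preleptotene SC values were 79.5, 51.8 and 84.0 CPM for NONO and 73.8, 47.9 and 66.3 CPM for NONO△ER, and they overlapped those of Undifferentiated SG. From Preleptotene SC to Lep/Zygo/ePac SC (7.08 ± 1.33 CPM) the mean was 9.49 times lower, with 5.59 to 12.5 times in the single libraries. Both genes came back at low levels in spermatids: Sohlh1 was at 6.32 ± 0.998 CPM in Round ST(Step 5-6), where 39.6% of its UMI lay, and had 0 UMI of 15186519 in Round ST(Step 7-8), which allows a level of up to 0.198 CPM (3 UMI; counting error only). Spermatids after step 1-2 held 52.0% of the UMI of Sohlh2.

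Dmrt1, a doublesex-related factor that holds back meiosis in spermatogonia and maintains Sertoli identity, was highest in Undifferentiated SG. It was at 498, 444 and 416 CPM in the Undifferentiated SG of NONO and at 548, 518 and 444 CPM in those of NONO△ER. Differentiated SG held 122 ± 29.2 CPM, 3.92 times less by the means and 2.60 to 6.04 times less in single libraries, with no overlap. Sertoli cells had 86.7 ± 19.0 CPM, Preleptotene SC 4.91 CPM and Lep/Zygo/ePac SC 0.405 CPM.

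Stra8, the retinoic acid response gene that permits premeiotic DNA replication and meiotic entry, marked Differentiated SG. Its values there were 958, 1092 and 1060 CPM for NONO and 809, 937 and 902 CPM for NONO△ER. In Undifferentiated SG it was at 171, 238 and 150 CPM for NONO and 308, 232 and 193 CPM for NONO△ER. The mean was 4.45 times higher in Differentiated than in Undifferentiated SG (2.63 to 7.09 times in single libraries) and 40.0 times higher than in Preleptotene SC (24.0 ± 12.2 CPM).

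The spermatogonial classes and Preleptotene SC together held 96.4% of all Stra8 UMI, and Lep/Zygo/ePac SC was at 0.355 CPM. The deposited name Preleptotene SC did not go with the textbook place of Stra8, which is known to peak in preleptotene cells. That class had the highest Sycp1 (a synaptonemal complex protein, 2827 CPM) and the highest Hormad1 (1499 CPM). The class named Differentiated SG had the highest Gm4969, the row that RefSeq lists with the synonym Meiosin (816 CPM), the highest Prdm9 (the enzyme that marks recombination sites, 532 CPM) and the highest Dmc1 (the meiotic recombinase, 705 CPM). Gfra1, the receptor of self-renewing spermatogonia, had 0 UMI of 1555826 in Differentiated SG, which allows up to 1.93 CPM, and 74.1 CPM in Undifferentiated SG, the class that also held the most Kit among germ cells. Other markers of preleptotene to zygotene cells were higher in Preleptotene SC: Meiob, a recombination factor, was at 455 CPM there and 173 CPM in Differentiated SG, and the germ cell surface protein Tex101 at 3636 and 2432 CPM. The sum of the 7 markers measured of 8 was 0.902% of UMI in Preleptotene SC and 0.634% in Differentiated SG. Among the 7 markers of differentiating spermatogonia, Dnmt3b was at 140 CPM in Undifferentiated SG and 4.58 CPM in Differentiated SG. Ccnd2 was at 40.5 and 0 CPM and Uhrf1 at 210 and 111 CPM. Kit (174 and 113 CPM), Sohlh1 (68.7 and 12.2 CPM) and Dmrtb1 (233 and 28.0 CPM) were also higher in Undifferentiated SG. Stra8 went the other way (216 and 960 CPM). The sum of the 7 was 0.108% and 0.123% of UMI, and Stra8 gave most of it in Differentiated SG. The authors' broad labels place Preleptotene SC with the spermatogonia. The meiotic markers thus split between Differentiated SG and Preleptotene SC. Of the markers of differentiating spermatogonia, Stra8 alone was higher in Differentiated SG than in Undifferentiated SG. Differences between classes are differences between the authors' names, which are kept below.

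Meioc and Ythdc2, which encode a coiled-coil protein and the RNA helicase it binds, were both higher in Differentiated SG than in Undifferentiated SG in every library. Meioc was at 290 ± 35.0 CPM in Undifferentiated SG and, in Differentiated SG, at 1059, 1031 and 1185 CPM for NONO and 1053, 1124 and 1243 CPM for NONO△ER. It then stayed high, with 832 ± 42.4 CPM in Preleptotene SC, 785 ± 23.6 CPM in Lep/Zygo/ePac SC and 511 ± 19.0 CPM in IPac/eDip SC, and reached 7.02 CPM in Elongated ST. Ythdc2 was at 119 ± 10.0 CPM in Undifferentiated SG and 382 ± 39.9 CPM in Differentiated SG.

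Ythdc2 in Preleptotene SC (340 ± 40.1 CPM) overlapped its range in Differentiated SG. It was at 109 ± 6.01 CPM in Lep/Zygo/ePac SC, which overlapped Undifferentiated SG, and at 15.6 CPM in IPac/eDip SC. Meioc RNA therefore outlasted that of Ythdc2: by IPac/eDip SC the mean of Meioc was still above its Undifferentiated SG value, and the mean of Ythdc2 was far below its own.

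Dmrtb1 (DMRT6), known as a factor that shuts off spermatogonial genes at the switch to meiosis, had its RNA late. Its level was 28.0 ± 12.2 CPM in Differentiated SG, 61.4 ± 15.5 CPM in Preleptotene SC, 422 ± 48.2 CPM in Lep/Zygo/ePac SC and 1024 ± 128 CPM in IPac/eDip SC. It was at 1164 ± 149 CPM in Round ST(Step 1-2), which the authors' broad labels place with the spermatocytes, and its range there overlapped those of IPac/eDip SC and of Round ST(Step 3) (1067 ± 145 CPM). Undifferentiated SG stood apart from this course with 233 ± 61.1 CPM, close to Sertoli (210 CPM), Leydig (220 CPM) and Myoid cells (254 CPM).

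Shares of cells with at least 1 UMI, taken as the expected share when each cell is drawn down to 2000 UMI, are given for the members that mark a class. Stra8 was seen in 62.2% ± 6.82 of Differentiated SG cells, 26.0% ± 3.99 of Undifferentiated SG and 0.480% of Sertoli cells, given for comparison. Meioc was seen in 87.3% ± 2.1 of Differentiated SG, 80.5% ± 1.10 of Lep/Zygo/ePac SC and 12.1% of Sertoli cells. Dmrt1 was seen in 58.5% ± 3.90 of Undifferentiated SG cells and 0.695% of Myoid cells, and Kit in 27.0% ± 2.23 against 0.726% in Sertoli cells. Without the draw these shares were 57.7% and 33.8% for Stra8 in Differentiated and Undifferentiated SG, 82.6% and 99.4% for Meioc, 67.4% for Dmrt1 and 36.2% for Kit, so the 2 Meioc values change order with depth. Myoid cells, and not Sertoli cells, were the class planned as lacking the members. They had 4.61 ± 7.62 CPM of Stra8 (4 UMI) and 11.2 ± 15.5 CPM of Kit (11 UMI). Sertoli cells had 2.70 and 2.92 CPM. For Meioc the order was the other way, with 66.2 CPM in Myoid and 88.8 CPM in Sertoli cells.

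For Dmrtb1 the share in Undifferentiated SG (25.9% at 2000 UMI, 33.5% without the draw) lay below that in Myoid cells (35.2% and 23.5%) at 2000 UMI. Median depths were 2675 to 4408 UMI in Undifferentiated SG and 1095 to 1958 UMI in Myoid cells. Since the order of these classes turns with the draw, neither expression of Dmrtb1 in Undifferentiated SG nor its absence is read from the share. In IPac/eDip SC the share was 84.8%.

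Within Undifferentiated SG, Kit was found less often beside Gfra1 and more often beside Stra8 and Dmrt1 than over all cells of the class. Among the 1069 cells with at least 2000 UMI, 2.68% of Kit-positive cells had a UMI of Gfra1, against 8.29% of all, and the share was below that of all cells in 6 of 6 libraries. Kit-positive cells had Stra8 in 36.6% against 26.0% of all cells, and Dmrt1 in 68.7% against 58.5%, each higher in 6 of 6 libraries. Meioc-positive cells had Ythdc2 in 28.6% against 22.8%, also in 6 of 6. Kit-positive cells had Sohlh1 in 13.0% against 13.5% of all cells, higher in 2 of 6 libraries.

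In Differentiated SG (311 cells), 94.0% of Kit-positive cells had Stra8, against 62.2% of all, in 6 of 6 libraries. Stra8-positive cells there had Dmrt1 in 25.5% against 17.4%, and Meioc in 90.9% against 87.3%, each in 6 of 6 libraries. Kit-positive cells there had Dmrt1 in 33.0% ± 13.4 against 17.4% of all, higher in 5 of 6 libraries. Kit, Stra8 and the remaining Dmrt1 thus lay in the same cells more often than over the class as a whole. For Kit with Dmrt1 this did not hold in every library. Meioc-positive cells of Differentiated SG had Ythdc2 in 49.5%, against 49.5% of all, and were higher in 2 of 6 libraries. These are descriptions over cells that share libraries, with no test.

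Over the 17 classes, the genes whose profile was most like that of a member were looked up among 13418 genes, by Pearson correlation of log2(mean CPM + 1); the classes share libraries, so the values carry no p. Stra8 was most like Nudt17 (0.98), Myrf (0.98) and Zyg11a (0.97), Meioc most like Spast (0.97), Ythdc2 most like Gtdc1 (0.97), and Dmrtb1 most like Ccdc83 (0.99). Dmrt1 was most like Bend4 (0.94), Kit most like Snhg11 (0.94), Sohlh1 most like Tafa5 (0.92) and Sohlh2 most like Gm3376 (0.92). Among the members themselves the highest values were 0.83 for Stra8 with Dmrt1, 0.80 for Stra8 with Sohlh2 and 0.78 for Meioc with Ythdc2.

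The design's genotype comparison asks whether these regulators, or their course, differ in NONO△ER testes. None of them passed the test in any class. Of the 136 pairs of a gene and a class, 67 had enough UMI to be tested with edgeR's quasi-likelihood test, 0 passed an adjusted p of 0.05 (Benjamini-Hochberg over all genes of the class), and 4 had an unadjusted p under 0.05. All 8 genes were tested in Undifferentiated SG, 5 in Differentiated SG, 4 in Preleptotene SC and 4 in Lep/Zygo/ePac SC. Over all genes, 0.0271% passed in Undifferentiated SG, 0% in Differentiated SG, 0.327% in Preleptotene SC and 0% in Lep/Zygo/ePac SC. Among all tested genes, the unadjusted edgeR p was under 0.05 for 1791 of 11064 in Undifferentiated SG and 282 of 4455 in Differentiated SG. In Round ST(Step 4-5) and Sertoli, where the others of the 4 pairs lay, it was so for 385 of 15647 and 436 of 9026. DESeq2 tested 134 pairs and called 1, Dmrtb1 in Undifferentiated SG. The share of all genes that DESeq2 called in that class is not given here, so the call cannot be weighed against it.

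**Figure D2:**
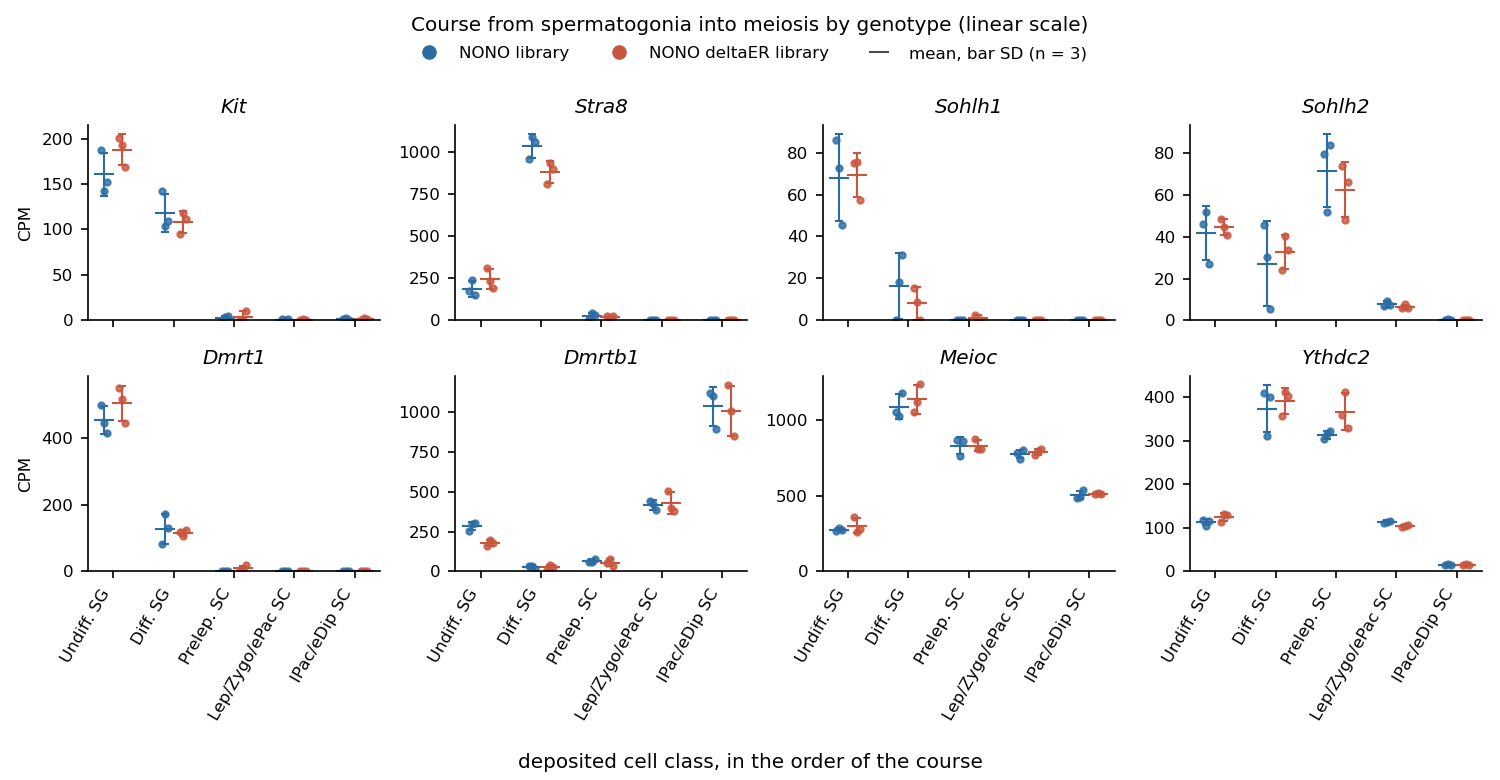
CPM (linear axis from 0) of each gene in the 5 classes of the course, with points for libraries and mean with SD (n = 3) for NONO and NONO deltaER. The genotypes overlap for most genes and classes. NONO deltaER lies below NONO for Dmrtb1 in Undifferentiated SG (163 to 200 against 256 to 302 CPM), as for 7.4% of tested genes. The same holds for Stra8 in Differentiated SG (809 to 937 against 958 to 1092 CPM), as for 4.51%. Ythdc2 lies higher in Preleptotene SC (as 10.3% of tested genes) and lower in Lep/Zygo/ePac SC (as 4.68%). Dmrt1 lies higher in Preleptotene SC (11 UMI) and IPac/eDip SC (22 UMI), but had too few UMI to be tested. No share over genes as rare as this was taken, so no genotype difference is read from it.

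In Undifferentiated SG, 6 of the 8 genes had a fold change above 0 and 2 below, with a median log2 fold change (NONO△ER over NONO) of 0.07 against 0.01 for all tested genes. Dmrt1 differed by 0.08 ± 0.12 (SE), Kit by 0.15 ± 0.14, Sohlh1 by -0.07 ± 0.22 and Sohlh2 by 0.01 ± 0.23. Meioc differed by 0.06 ± 0.14, Ythdc2 by 0.07 ± 0.14, and Stra8 by 0.33 ± 0.20. For these 7 genes the libraries of the genotypes overlapped, and the difference of Stra8 was -11.5 CPM among the libraries with more mitochondrial UMI and 121 CPM among the others. Beside these values, the summed markers of undifferentiated spermatogonia (7 of 7 measured, none at 0) made up 0.0329% to 0.0350% of UMI in this class for NONO and 0.0415% to 0.0582% for NONO△ER, without overlap; their part in the differences was not tested.

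Dmrtb1 was the exception in Undifferentiated SG. It was at 256, 298 and 302 CPM in NONO and at 163, 200 and 177 CPM in NONO△ER, a log2 fold change of -0.73 ± 0.13 (95% interval -1.0 to -0.46) with an edgeR adjusted p of 0.0578. The libraries did not overlap, as was so in the same direction for 7.4% of tested genes in this class. The difference was -100 CPM among the libraries with more mitochondrial UMI (TF alone for NONO△ER) and -121 CPM among the others (TC alone for NONO).

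The summed markers of round spermatids were also lower in NONO△ER in this class. Of the 6 markers, 5 were measured and none was at 0, and their sum made up 0.0240% to 0.0415% of UMI in NONO and 0.0127% to 0.0203% in NONO△ER, without overlap. Acrv1 and Acr, both acrosomal proteins, had means of 45.2 and 81.6 CPM in NONO and 23.4 and 41.4 CPM in NONO△ER. Spaca1, also acrosomal, had 129 and 56.0 CPM, and Catsper3 48.4 and 20.2 CPM. Tex29, the remaining marker, hardly differed, with 22.3 and 20.7 CPM and overlap of the libraries. Prm2, a protamine of elongating spermatids, had similar means of 5002 and 5126 CPM. The ratio of Dmrtb1 UMI to those of the round spermatid markers was 0.911 in NONO and 1.11 in NONO△ER in Undifferentiated SG. Single libraries there ranged from 0.729 to 1.58. In Sertoli cells it was 0.843 and 0.858. Over all libraries the ratio was 0.992 in Undifferentiated SG and 0.850 in Sertoli cells. It was lower in the other classes outside the germ line, at 0.522 in Leydig, 0.643 in Myoid, 0.683 in Macrophage and 0.484 in Unknown cells.

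In the somatic and unknown classes the mean of Dmrtb1 was lower in NONO△ER in 4 of 5, and the libraries overlapped in all 5. It was at 248 CPM in NONO and 173 CPM in NONO△ER in Sertoli cells, 236 and 205 CPM in Leydig, 347 and 162 CPM in Myoid and 181 and 121 CPM in Unknown cells, and at 144 and 167 CPM in Macrophage. In Sertoli cells it was at 260, 271 and 212 CPM in NONO and at 190, 107 and 222 CPM in NONO△ER (log2 fold change -0.51 ± 0.23, edgeR adjusted p = 0.960), with overlap. In Lep/Zygo/ePac SC, where Dmrtb1 is abundant, the log2 fold change was 0.04. The part of spermatid RNA in the Undifferentiated SG value was not tested.

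**Figure D3:**
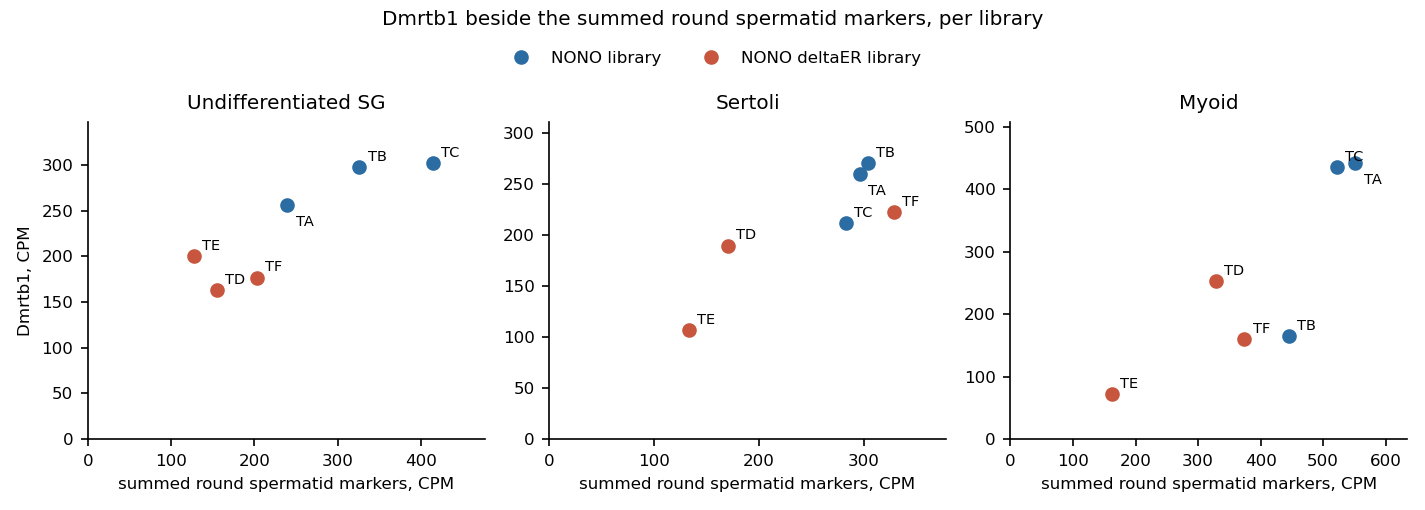
Dmrtb1 CPM against the summed CPM of 5 round spermatid markers (linear axes from 0) for each of the 6 libraries in Undifferentiated SG, Sertoli and Myoid cells. In Undifferentiated SG the 3 NONO deltaER libraries (163 to 200 CPM of Dmrtb1) lie below and to the left of the 3 NONO libraries (256 to 302 CPM).

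The call for Dmrtb1 depended on the settings. Its log2 fold change lay between -0.61 and -0.82 in all 14 settings run, and the adjusted p was under 0.05 in 5 of them, among them without TA (0.00431) and without TF (0.0170), but was 0.366 without TD and 0.357 without TB.

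In Differentiated SG, where 282 of 4455 tested genes had an unadjusted edgeR p under 0.05, Stra8 was the member among them. Its NONO△ER libraries (809 to 937 CPM) all lay below the NONO ones (958 to 1092 CPM), as did those of 4.51% of tested genes in this class. The log2 fold change was -0.27 ± 0.12 (95% interval -0.52 to -0.03) with an edgeR adjusted p of 0.689. The difference was -123 CPM within the libraries with more mitochondrial UMI and -187 CPM within the others. The median over the 5 members tested was -0.15, against 0.00 for all tested genes. Kit differed by -0.20 ± 0.24, and Meioc and Ythdc2 by 0.02 and 0.01. In simulated data of this class, with changed genes drawn at random, 17.5% of those changed 1.5-fold and 67.2% of those changed 2-fold were recovered. The 95% intervals of Stra8, given above, Meioc (-0.22 to 0.26) and Ythdc2 (-0.30 to 0.31) were short of 1.5-fold. Those of Kit (-0.70 to 0.30) and Dmrt1 (-0.68 to 0.37) were not.

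In Preleptotene SC, Ythdc2 was at 303, 314 and 323 CPM in NONO and at 358, 412 and 329 CPM in NONO△ER, without overlap, as was so in that direction for 10.3% of tested genes. Its log2 fold change was 0.19 ± 0.13 with an edgeR adjusted p of 0.590. In Lep/Zygo/ePac SC the order was the other way, with 111, 115 and 117 CPM in NONO and 101, 105 and 106 CPM in NONO△ER, a log2 fold change of -0.13 ± 0.07 and an edgeR adjusted p of 0.996. There, 4.68% of tested genes were lower without overlap. Neither shift of Ythdc2 passed the test, and their sizes were 20.7 and -6.84 CPM among the libraries with more mitochondrial UMI and 62.6 and -13.7 CPM among the others. Meioc, its partner, differed by -0.03 and 0.03 in the same 2 classes.

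**Figure D4:**
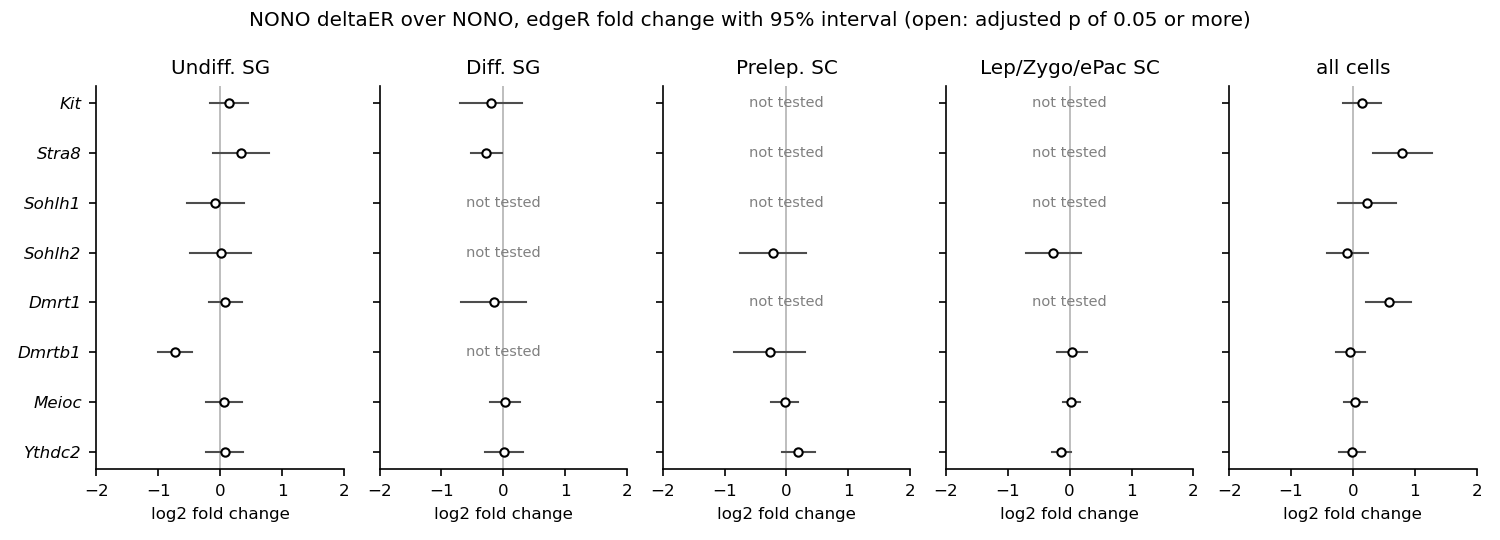
edgeR log2 fold change of NONO deltaER over NONO (points) with its 95% interval (lines) for each gene in the first 4 classes of the course and over all cells; open points mark an adjusted p of 0.05 or more. All points are open; the intervals of Dmrtb1 in Undifferentiated SG (-1.0 to -0.46), of Stra8 in Differentiated SG (-0.52 to -0.03) and of Stra8 and Dmrt1 over all cells do not reach 0.

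Over all cells of a library, Stra8 and Dmrt1 were both higher in every NONO△ER library. Stra8 was at 4.29, 4.22 and 3.83 CPM in NONO and at 9.18, 7.75 and 4.75 CPM in NONO△ER. Dmrt1 was at 8.59, 6.23 and 5.96 CPM in NONO and at 11.8, 10.8 and 8.70 CPM in NONO△ER. The log2 fold changes were 0.80 ± 0.21 and 0.58 ± 0.16, each with an edgeR adjusted p of 0.823, and 7.77% of all tested genes were higher without overlap. The other 6 genes differed by -0.09 to 0.22. Among the libraries with more mitochondrial UMI the difference was 0.497 CPM for Stra8 and 1.28 CPM for Dmrt1, and among the others 4.64 and 5.33 CPM.

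In such summed samples more cells of a type and more RNA per cell cannot be told apart, so the classes were set beside them. Undifferentiated SG made up 2.62% of NONO and 3.92% of NONO△ER cells, and Differentiated SG 0.979% and 1.78%. When every library was given the same makeup of classes, Stra8 was at 5.52 CPM in NONO and 5.83 CPM in NONO△ER (log2 ratio 0.08), and Dmrt1 at 8.14 and 9.0 CPM (log2 ratio 0.14), with overlap for both. Without TF the log2 fold change of Stra8 over all cells was 1.03, with an edgeR adjusted p of 0.0499.

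The steepness of the course was compared as the step in log2 CPM between neighbouring classes of the same library, tested with limma. Of the 14 steps of members that could be tested, none differed by genotype past the threshold, nor did any of the 4441, 4165, 5691 and 10962 genes tested for the 4 steps (0% each, with 312, 173, 474 and 497 genes at an unadjusted p under 0.05). Stra8 stepped up by 2.47 ± 0.28 (SD, n = 3) in NONO and 1.91 ± 0.38 in NONO△ER from Undifferentiated to Differentiated SG. The difference was -0.56 ± 0.26 (SE, 95% interval -1.15 to 0.03), with a limma adjusted p of 0.744.

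Ythdc2 had the largest difference after Stra8, with steps of -1.49 in NONO and -1.82 in NONO△ER from Preleptotene SC to Lep/Zygo/ePac SC (difference -0.33 ± 0.18 (SE), limma adjusted p = 0.612). From Undifferentiated to Differentiated SG, Meioc stepped up by 1.94 in NONO and 1.96 in NONO△ER and Ythdc2 by 1.69 and 1.68, while Dmrt1 had steps of -1.83 and -1.99 and Kit of -0.40 and -0.68. From Preleptotene SC to Lep/Zygo/ePac SC, Sohlh2 had steps of -3.26 and -3.33 and Dmrtb1 of 2.53 and 2.83. Each of these steps had the same sign in both genotypes. In simulated data of the first 3 steps, 24.1%, 5.41% and 23.1% of genes whose step differed 2-fold were recovered, and 98.2%, 71.1% and 97.1% of those that differed 4-fold. Most 2-fold differences in steepness of genes drawn at random would thus have been missed, and the last step was not simulated. From Undifferentiated to Differentiated SG the 95% intervals were -0.48 to 0.52 for Meioc and -0.45 to 0.43 for Ythdc2, short of 2-fold. That of Stra8, given above, was not.

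Shares of positive cells were compared over 32 pairs of a gene and a class with exact permutation tests (two-sided, 3 against 3, smallest possible p 0.1). None passed the threshold, which this design cannot reach, and the lowest adjusted p of the exact permutation tests was 0.914. At 2000 UMI, Stra8 was seen in 66.5% of Differentiated SG cells in NONO and 57.9% in NONO△ER (61.4% and 54.0% without the draw), with overlap. Dmrt1 was seen in 57.6% and 59.5% of Undifferentiated SG cells (65.1% and 69.7% without the draw), and Kit in 25.7% and 28.2% (34.4% and 38.0%).

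Meioc in Preleptotene SC was seen in 75.8% of NONO and 81.1% of NONO△ER cells without overlap, but in 66.3% and 61.9% without the draw, so this order turns with depth. The draw kept 459 and 610 cells of Undifferentiated SG, 100 and 211 of Differentiated SG and 168 and 169 of Preleptotene SC in NONO and NONO△ER. It left out 201 and 233, 146 and 162, and 447 and 512 cells in turn. Most Preleptotene SC cells were thus too shallow to enter.

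The genes around the members were taken from 4 lists of known regulators, and in each of them 0 rose and 0 fell in each class of the course. Of 20 regulators of the undifferentiated state, 19 were measured and 12 tested in Undifferentiated SG, with 8 above 0 and a median log2 fold change of 0.31 against 0.01 for all tested genes. Gfra1 was at 49.1 CPM in NONO and 99.0 CPM in NONO△ER there (log2 fold change 0.97 ± 0.35, edgeR adjusted p = 0.226), and Zbtb16, the PLZF factor, at 176 and 235 CPM (0.35, edgeR adjusted p = 0.226).

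Of 18 genes of the KIT and retinoid signal, 8 were tested in Undifferentiated SG, with 5 above 0 and a median of 0.10. Rarg, the retinoic acid receptor of spermatogonia, was at 17.7 and 24.0 CPM in NONO and NONO△ER. Kitl, the ligand of KIT, was highest in Leydig cells and stood at 144 and 160 CPM in Sertoli cells, while Differentiated SG had 0 UMI of it, which allows up to 1.93 CPM.

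Of 14 proliferation genes, all were tested in Undifferentiated SG (median 0.05), where Ccna2, the S and G2 phase cyclin, was at 202 and 204 CPM. In Differentiated SG, 9 were tested and 8 lay below 0, with a median of -0.10 against -0.004 for all tested genes. Of the 26 names of meiotic entry partners and targets, 23 were measured; Gm4969, Bhmg1 and Meiosin are names of 1 gene, held in the row Gm4969.

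In Differentiated SG, 15 of 21 tested meiotic entry genes lay above 0 (median 0.08, against -0.004 for all tested genes). Gm4969 was at 758 and 874 CPM there in NONO and NONO△ER (log2 fold change 0.16, edgeR adjusted p = 0.906), and Dmc1 at 682 and 729 CPM. In Preleptotene SC 13 of 19 meiotic entry genes lay above 0, with a median of 0.11 against -0.002 for all tested genes. Rbm46, an RNA-binding partner of MEIOC and YTHDC2, was at 271 CPM over all libraries in Preleptotene SC, and Xrn1, the exonuclease that YTHDC2 binds, at 110 CPM in Undifferentiated SG. Rec8, the meiotic cohesin, was at 36.8 CPM in NONO and 28.2 CPM in NONO△ER in Undifferentiated SG.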

How the data were processed

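The authors deposited 1 table of UMI counts per gene and cell for all 6 libraries, made with Cell Ranger 2.1.1 on mm10 per the submitters' processing notes (single cell 3′ version 2 chemistry per the labels' protocols), and a table of cells with library, mitochondrial percent and class. Library names could not be tied to single samples of the labels, only to genotypes. The deposited mitochondrial percent reached at most 5.00%, and cells had at least 500 UMI and 201 genes; how cells were filtered, clustered and named, and whether doublets were removed, are points the sources used here leave unsaid, and no doublet caller was run. UMI were summed per library and class (at least 20 cells) and fitted class by class with edgeR 4.0.16 (TMM, filterByExpr, robust quasi-likelihood test), adjusted over all tested genes, threshold 0.05; limma 3.58.1 tested steps (prior count 2), and DESeq2 1.42.0, RLE scaling, no filter, deeper cells, fewer high-UMI cells, equal cell numbers, a mitochondrial set covariate and leaving out libraries were alternatives. The scripts were tested on simulated data. At 2-fold, 59.7% of changed genes were recovered in Undifferentiated SG, 69.8% in Preleptotene SC and 83.3% in Lep/Zygo/ePac SC. The members, lists and markers were chosen with earlier results of these data known. Genes named are the members in the course, the closest profiles, genes past the threshold and fixed examples. Prdm9, Hormad1, Sycp1, Meiob, Tex101, Gm4969, Acrv1, Acr, Spaca1 and Prm2 come from the lists and markers and were picked after their values were seen. The same holds for Dnmt3b, Ccnd2, Uhrf1, Catsper3 and Tex29. Sycp3 was not analysed here. Sequences come from RefSeq (GRCm38.p6), and spans from GENCODE M21.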

Additional observations from a re-analysis of the deposited data

How the results depend on the processing

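The count of 0 gene and class pairs past the threshold became 1 with DESeq2, 1 without a filter on low counts and 1 without the 5% of cells with the most UMI, each time Dmrtb1 in Undifferentiated SG, and ranged from 0 to 1 when single libraries were left out. Over all cells the count of 0 ranged from 0 to 1 when single libraries were left out (1 without TF, Stra8). The share of all genes called in these settings is not given here. The count for steps was 0 in every setting run; that for shares of positive cells is 0 by design, since 3 libraries against 3 cannot pass, and of 288 recomputed share differences 21 moved by more than the spread between libraries and 51 turned sign. Of 949 recomputed log2 fold changes, 93 turned sign, all for values not past the threshold, and 6 passed it. The class with the highest level was the same for all 8 genes in every setting run. No paired analysis was possible because the files do not tie the library letters to the labels' replicate numbers. In Preleptotene SC, Kit, Sohlh1, Stra8 and Dmrt1 had too few UMI to be tested.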
